A study of Homo sapiens with 8 samples.

Results

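The transcripts bound by NSun6 were read in 3 individual-nucleotide resolution libraries made by methylation crosslinking and immunoprecipitation (miCLIP), which are 3 of the 8 samples of the series. The libraries were chosen by their labels, which name NSun6 as the tagged enzyme and number the replicates 1 to 3. The cells were HEK293, an established embryonic kidney line, transfected with a myc-tagged NSun6 construct and harvested after 24 hours. Another 3 libraries carry tagged NSun3 and are not described here, and 2 bisulfite libraries of HEK293 RNA, for which the labels give no transfection, served as a separate readout of methylation. The labels do not say that the 3 replicates were separate cultures, so the spread between them may be technical.

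NSun6 belongs to the NOL1/NOP2/SUN domain family of RNA methyltransferases, which place a methyl group on carbon 5 of cytosine (m5C) through a covalent bond between an enzyme cysteine and the base. Its known substrates are the cytoplasmic tRNAs for cysteine and threonine, which it methylates near the 3′ end of the acceptor stem. In miCLIP the enzyme is held on its RNA, pulled down with its tag and digested, and the remaining peptide stops reverse transcriptase, so that a cDNA begins at or next to the held cytosine. A read start is therefore the unit of measurement. The sources used here describe a cysteine mutant that traps the enzyme for NSun3 and do not state which form of NSun6 was expressed. No mock or input library was analysed, so a read count mixes how abundant a transcript was with how often the enzyme was caught on it.

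Of the 11 cytosines with the most NSun6 reads in nuclear mRNA exons, 10 lay at the sequence CTCCA. These 10 are shown first because the results below turn on that sequence. They were picked for that sequence, and the other one, in PRRC2A, is shown further below. Each line gives 29 bases of the GRCh37 reference in the direction of the transcript, with CTCCA in capitals, and the coordinates and strand refer to hg19.
EXO1, 5′ UTR (chr1:242011590-242011618, plus strand): cggagcgggtttCTCCAaccgcaatcggc
CALR, 3′ UTR (chr19:13055119-13055147, plus strand): agggggtggtgtCTCCAaccccccagcac
H4C1, 3′ UTR (chr6:26022219-26022247, plus strand): ggttgctgatttCTCCAcagcttgcattt
MARCKSL1, coding sequence (chr1:32801604-32801632, minus strand): gggcagccagagCTCCAaggctccccggg
CKB, coding sequence (chr14:103986323-103986351, minus strand): ggtcttcgacgtCTCCAacgctgaccgcc
RHOG, 3′ UTR (chr11:3848348-3848376, minus strand): gctctctcccttCTCCAatgagggagcca
S100A11, coding sequence (chr1:152006252-152006280, minus strand): aaaggcaaaaatCTCCAgccctacagaga
CCT3, coding sequence (chr1:156287280-156287308, minus strand): ttcacccgaattCTCCAgatggaggaaga
ARHGDIA, coding sequence (chr17:79826292-79826320, minus strand): ggccgggccgtcCTCCAgccccgctgctc
PITPNB, 3′ UTR (chr22:28249369-28249397, minus strand): ttagtacaatttCTCCAaagtactgtacc
The same 5 letters lay at the leading site of a vault RNA, a small RNA of the cytoplasmic vault particle that is made by RNA polymerase III.
VTRNA1-3 (chr5:140105807-140105835, plus strand): cccgcgggcgctCTCCAgccctcttactg

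The libraries held 323935, 467586 and 305392 reads at 27780, 78300 and 39942 positions for replicates 1, 2 and 3. Replicate 2 stood apart: 38.1% of its positions held a single read, against 19.8% and 26%, and when each library was thinned to 300000 reads it was calculated to cover 64510 positions, against 27358 and 39756. The leading results are therefore given per library, and the others as mean ± SD over the 3 libraries. Of 117446 positions in all, 8249 were seen in every library, and these held 72.4%, 64.3% and 68.8% of the reads. Over the 1848 protein-coding genes with at least 10 reads in each library, log2 of RPM plus 1 (RPM, reads per 1000000 reads of a library) correlated with r of 0.870, 0.859 and 0.904 between replicates 1 and 2, 1 and 3, and 2 and 3, a description across genes, which are not independent replicates. The common biological coefficient of variation, the spread between libraries beyond counting noise, was 0.246 over 1706 genes (edgeR). The bisulfite coverage of the markers of the labelled line was mostly high: VIM had 4815 reads per cytosine, KRT18 had 417, and the neurofilament genes NEFL and NEFM had 240 and 227, whereas the erythroid HBB and the leukocyte PTPRC were at 0 and the hepatocyte ALB was at 0.422. The neuronal filament gene INA, also a marker of the line, was lower, with 28.4 reads per cytosine, and the fibroblast gene COL1A1 had 33.0.

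Messenger RNA was the leading class of bound RNA. Exons of nuclear protein-coding genes took 48.1%, 48.5% and 49.7% of the reads in the 3 libraries (48.8 ± 0.809%, SD, n = 3). The 3 values lay close together, and replicate 2 was not apart from the others in this share. Vault RNA followed with 13.2%, 9.74% and 11.2% (11.4 ± 1.75%), highest in replicate 1 and lowest in replicate 2, and most of these reads ran past the annotated end of the RNA, as described with VTRNA1-3 below. Mitochondrial transcripts held 8.86 ± 0.759%, introns 8.23 ± 1.15%, positions with the sequence of the ribosomal repeat 7.85 ± 1.70% and tRNA-like loci 7.72 ± 0.614%. Mitochondrial transcripts were above tRNA-like loci in each library (9.56% and 8.16%, 8.05% and 7.02%, 8.98% and 7.98%), while introns and ribosomal repeat sequence changed places with them from library to library. A single position in an intron of ANKRD30BL, next to a 10-base stretch like one of the ribosomal repeat, held 1.06%, 2.42% and 1.99% of the libraries, and without it introns held 5.95%, 6.86% and 6.42%. It missed the cut for ribosomal repeat sequence, whereas sites on the same strand at 133011978, 133011982 and 133011987 met that cut. The ribosomal share given here leaves the position out, and the place of that class in the order depends on this choice. Ribosomal repeat sequence was highest in replicate 2, with 9.78% against 7.21% and 6.57%. The remaining classes were small, and ranged from 2.16 ± 0.152% outside annotated genes and 2.04 ± 0.283% antisense to a gene down to 0.879 ± 0.0612% in long non-coding RNA and 0.315 ± 0.0576% in pseudogenes. All shares are of reads that mapped to a single place, so classes with many gene copies, such as tRNA and ribosomal RNA, would be undercounted. The effect of this on the order of classes was not tested.

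**Figure D1:**
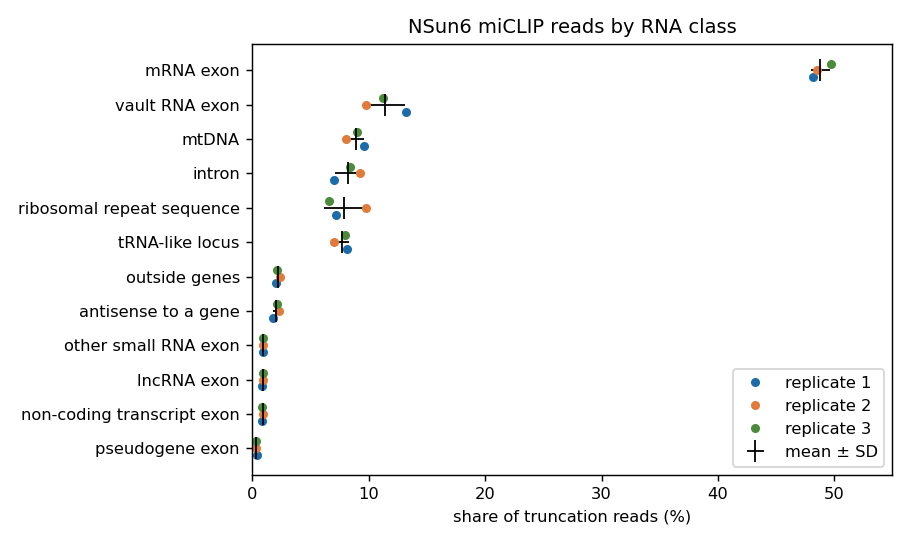
Share of NSun6 miCLIP reads (percent of each library) by RNA class, with points for the 3 libraries and bars for their mean. Exons of nuclear mRNA held 48.1% to 49.7% of the reads, and vault RNA, in second place, 9.74% to 13.2%.

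Reads were concentrated on few positions. The leading position alone held 7.80%, 3.99% and 5.84% of a library, the leading 10 held 17.2%, 12.6% and 15.8%, and the leading 100 held 30.4%, 25.9% and 29.1% (28.5 ± 2.32%). Replicate 2 was the lowest in each of these shares. Within mRNA exons the reads were spread further, since the leading position held 0.675 ± 0.101%, the leading 10 held 4.40 ± 0.632% and the leading 100 held 14.9 ± 1.39% of mRNA exon reads. The leading position of each library lay in VTRNA1-3.

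Within mRNA the reads were divided almost evenly between coding sequence and 3′ UTR. Coding sequence held 48.3%, 48.3% and 48.5% of mRNA exon reads (48.4 ± 0.0990%), 3′ UTRs 45.1%, 45% and 44.5% (44.9 ± 0.353%) and 5′ UTRs 6.63%, 6.65% and 7.08% (6.79 ± 0.254%). The 3 libraries were nearly the same in this division, and the coding share was above the 3′ UTR share in each of them. That order rests on giving bases with several annotations to coding sequence first, since with UTRs first coding sequence held 43.9% and 3′ UTRs 47.3%. Per kilobase of annotated sequence in the genes that held a site (defined below), the density was 66.2 ± 1.99 RPM in coding sequence, 62.4 ± 1.35 RPM in 3′ UTRs and 38.5 ± 1.75 RPM in 5′ UTRs. The 5′ UTR was the lowest region in every library. CTCCA itself was also unevenly spread, with 2.27 occurrences per kilobase of coding sequence, 1.73 of 3′ UTR and 1.58 of 5′ UTR in these genes.

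Between 91.4% and 92.3% of the reads of a library began within 2 nt of a cytosine. Each of these read starts was moved to the closest cytosine no more than 2 nt away, and a cytosine that then exceeded 50 RPM in 2 or all 3 libraries was taken as a high-confidence site, which needs at least 17, 24 and 16 reads. By this rule 1881 cytosines were sites, and 1332 of them (70.8%) passed in all 3 libraries. The sites held 60.0%, 55.2% and 58.7% of the reads. The last cytosine inside the threshold lay in GPR157, with 25, 24 and 2 reads, and the first outside it lay in TP73, with 16, 34 and 6 reads. Of the sites, 1193 (63.4%) lay in mRNA exons, with 577 in coding sequence, 548 in 3′ UTRs and 68 in 5′ UTRs. Ribosomal repeat sequence held 257 sites, tRNA-like loci 88, mitochondrial DNA 87, introns 87, positions outside genes 43, other small RNAs 32 and vault RNA 30. A class with few positions and many reads, such as vault RNA, therefore weighs less in the count of sites than in the count of reads.

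The motif CTCCA was found at most sites in mRNA exons and at few of those in tRNA-like loci and ribosomal repeat sequence. The 5 letters were searched on the strand of the transcript, with the site at any of their 3 cytosines, while CTCTA (below) was counted only where its first cytosine was the site, and these motifs cannot overlap each other. CTCCA was found at 1222 of the 1881 sites (65.0%, exact 95% binomial interval 62.8% to 67.1%), and 1198 of these used its first cytosine. It opened at 63.7% of the site cytosines, and at 0.832% of 53619 other cytosines within 50 nt on the genome. In mRNA exons 1068 of 1193 sites (89.5%, 87.6% to 91.2%) held the motif, with 515 of 577 in coding sequence, 498 of 548 in 3′ UTRs and 55 of 68 in 5′ UTRs. Its first cytosine was the site at 1052 of the 1193 (88.2%), beside 0.699% of 32782 other exon cytosines within 50 nt. Which of its cytosines is the site depends on the tie rule, since a start at the T is as near to the second cytosine as to the first. With ties given to the 3′ cytosine, 1094 of 1216 mRNA sites lay at CTCCA (89.97%), 415 at its first and 679 at its second cytosine. Introns had it at 61 of 87 sites, and mitochondrial DNA at 23 of 87. In tRNA-like loci 3 of 88 sites had it in the genome sequence, which lacks the CCA end added to tRNAs. In ribosomal repeat sequence 1 of 257 had it. Other small RNAs had it at 10 of 32 sites and vault RNA at 4 of 30, the leading vault site among them. These intervals, and all intervals given below, cover counting error only.

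Most of the mRNA sites without CTCCA held CTCTA, which differs from it in the fourth letter. CTCTA was found at 87 mRNA sites (7.29%), so that 1155 of 1193 mRNA sites (96.8%, 95.7% to 97.7%) held one of these motifs, and 11 held CTCAA or CTCGA while 27 held none of the 4. Among the nearby exon cytosines 0.308% opened a CTCTA. The 3 CTCTA sites with the most reads are shown in the same way, with CTCTA in capitals.
PRRC2A, coding sequence (chr6:31604110-31604138, plus strand): gctggaggagttCTCTAccctccaccttc
H4C4, 3′ UTR (chr6:26188970-26188998, minus strand): ggctgagcttacCTCTAcagtacactacc
PPIL1, 3′ UTR (chr6:36823067-36823095, minus strand): gaatgtatgcatCTCTAtatatattttcc
The PRRC2A site held 1165, 1199 and 1000 reads (3145 ± 528 RPM), the H4C4 site 441, 534 and 487 reads (1366 ± 226 RPM) and the PPIL1 site 216, 246 and 193 reads (608 ± 73.3 RPM). The CTCTA site of PRRC2A, a large proline-rich RNA-binding protein, thus lay within the SD of the leading CTCCA site of nuclear mRNA, that of EXO1. The stretch printed for PRRC2A also holds a CTCCA, after its CTCTA.

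Read starts were placed sharply on the motif. In mRNA exons 40.0 ± 3.37% of all reads began at the T after the first cytosine of a CTCCA, 25.4 ± 0.754% at the first cytosine itself and 2.06 ± 0.458% at the cytosine after the T, whereas 0.683% began 1 base before the motif. Together these 3 starts took 70.4%, 62.3% and 69.7% of mRNA exon reads (67.5 ± 4.52%), lowest in replicate 2. Vault RNA had 62.5 ± 9.24% of its reads at such starts, introns 42.2 ± 5.41% and mitochondrial transcripts 31.4 ± 1.95%. In tRNA-like loci the share was 0.725 ± 0.168%, and in ribosomal repeat sequence 0.408 ± 0.144%. In the genome sequence, tRNA-like loci and ribosomal repeat sequence thus had few motifs both at their sites and at their single reads, whatever the threshold. Vault RNA differed, with the motif at 4 of 30 sites but at most of its reads. The CCA end of a mature tRNA is added after transcription and is not in that sequence. A motif that includes this end could therefore not be found.

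**Figure D2:**
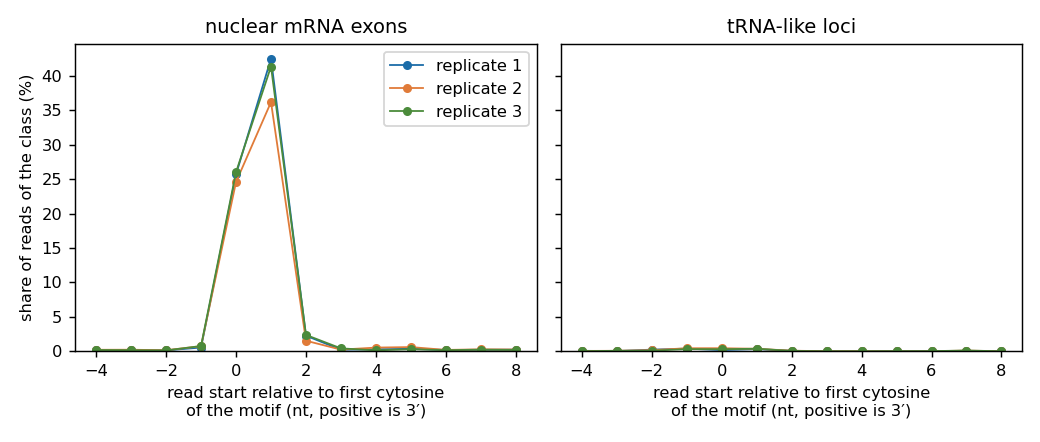
Percent of mRNA exon reads against the distance in nt of the read start from the first cytosine of CTCCA, with a line for each of the 3 libraries. The starts pile up at distance 0 (25.4 ± 0.754%) and 1 (40.0 ± 3.37%).

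The base before the motif and the structure around it also differed between CTCCA motifs that were sites and other CTCCA motifs in exons of the same genes that had no read. T preceded the motif at 62.5% of 944 site motifs and at 19.6% of 5874 motifs without a read. Of the mRNA sites printed first, all but MARCKSL1 and ARHGDIA had it. In a predicted fold of the motif with 30 nt on either side, the motif was unpaired with a mean probability of 0.705 ± 0.268 (SD over motifs) at sites and 0.541 ± 0.281 at motifs without a read. The first cytosine was unpaired at 0.729 against 0.489, while bases 7 nt before it (0.316 against 0.522) and 9 nt after it (0.317 against 0.525) were more often paired at sites. Site motifs thus tended to lie in a predicted loop between paired arms. The GC content was close, at 56.7% and 54.9%, and the predicted free energy was lower at sites (−16.9 against −14.2 kcal/mol). The leading sites varied in this: the motif was unpaired with a probability of 0.978 in EXO1 and 0.996 in S100A11, and of 0.209 in CCT3 and 0.327 in CKB.

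**Figure D3:**
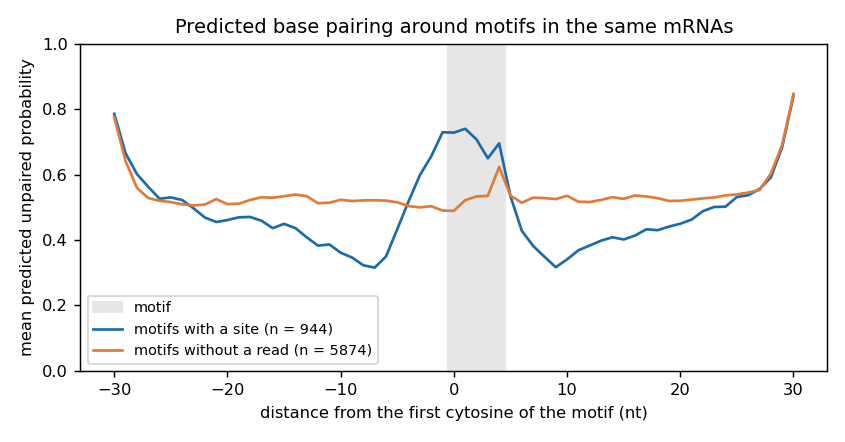
Mean predicted probability of being unpaired against the distance in nt from the first cytosine of CTCCA, for site motifs and for motifs without a read. Sites lie above at the motif (0.729 against 0.489 at its first cytosine) and below on either side (0.317 against 0.525 at 9 nt after it).

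Sites in 3′ UTRs lay along the whole UTR, with the most near its start and the fewest toward its end. The 547 3′ UTR sites that could be placed on a transcript lay a median of 559 nt after the last coding base and 774 nt before the transcript's end. Of them 73 (13.3%) lay within 100 nt after the last coding base and 40 (7.31%) within 100 nt of the end. When each 3′ UTR was divided into 10 equal parts, the first held 82 sites and the last parts 33 and 30. As shares of all 1172 placed sites these are 6.997%, 2.82% and 2.56%, beside 4.44%, 4.29% and 2.85% of the CTCCA motifs in the same genes, a difference that was not tested. As a share of the CTCCA motifs in the genes with a site, 490 of 4254 in 3′ UTRs were sites (11.5%, 10.6% to 12.5%), 508 of 5234 in coding sequence (9.71%, 8.92% to 10.5%) and 54 of 879 in 5′ UTRs (6.14%, 4.65% to 7.94%). The order of regions by motif use was therefore not the order by reads per kilobase.

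Reads fell in exons of many protein-coding genes but gathered on few of them. Without a mock library, a gene with few reads cannot be told from background. Of 20163 nuclear protein-coding genes, 10047 had an exon read in at least 1 library and 4233 had one in every library. A site was held by 1003, which is 9.98% of the genes with a read. Most of these, 853 genes, held 1 site, 123 held 2 and 5 held at least 5. The genes with a site took 67.2% of mRNA exon reads. In the median gene with at least 10 reads in each library, 39.7% of the reads fell on 1 position, and in 541 of the 1848 such genes at least 50% did. The median coefficient of variation of a gene's RPM over the libraries was 25.1%.

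The leading nuclear protein-coding gene was EXO1, an exonuclease of DNA mismatch repair. It held 1802, 2090 and 1483 exon reads (4963 ± 554 RPM), 91.5% of them in the 5′ UTR and 66.3% on 1 position. The site itself had 1225, 1343 and 1054 reads (3368 ± 460 RPM), so all 3 libraries placed most of the gene's reads on the same bases. Its mRNA was not among the most abundant, with 103 bisulfite reads per cytosine, the 85.5th percentile of genes by coverage. PRRC2A followed with 1478, 1649 and 1281 reads (4095 ± 525 RPM), all but 0.0174% in coding sequence. CALR, the calcium-binding chaperone calreticulin, held 1260, 1693 and 1343 reads (3969 ± 395 RPM), 99.2% of them in the 3′ UTR. MARCKSL1, an actin-binding substrate of protein kinase C, held 1171, 1712 and 1337 reads (3885 ± 428 RPM), 90.8% of them in coding sequence. PRRC2A, CALR and MARCKSL1 differed by less than their SD. H4C1, a gene for histone H4, held 1195, 1419 and 1031 reads (3367 ± 327 RPM), of which 94.9% lay in its 3′ UTR. Among these first genes the region that carried the reads was thus a different one from gene to gene.

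The next genes by read count covered several cell functions. ARHGDIA reached 3038 ± 181 RPM and RHOG 2685 ± 80.1 RPM. The creatine kinase CKB had 2615 ± 183 RPM and the calcium-binding S100A11 2433 ± 526 RPM, with the highest value of S100A11 in replicate 1 (2982 RPM) and the lowest in replicate 2 (1933 RPM). SRRM2, a scaffold of nuclear speckles, had 2274 ± 251 RPM over 5 sites. The leading one held 275, 516 and 351 reads (1034 ± 162 RPM) and the next 35, 114 and 44 reads (165 ± 70.3 RPM), so 1 site led in each library. The chaperonin subunit CCT3 (2075 ± 105 RPM), the mitochondrial import receptor subunit TIMM50 (1968 ± 124 RPM), the mitochondrial fatty acid oxidation enzyme ECHS1 (1968 ± 317 RPM), MLF2 (1890 ± 161 RPM) and the ataxin-2 relative ATXN2L (1825 ± 204 RPM) completed the first 15. ATXN2L resembled EXO1 in carrying most of its reads (71.5%) in the 5′ UTR, whereas ECHS1 (99.5%) and MLF2 (94.5%) carried theirs in the 3′ UTR. The 15 genes held 8.82% of mRNA exon reads and the first 100 held 28.1%. The largest number of sites in a gene was 6, in SRCAP, the ATPase of a chromatin remodelling complex (541, 856 and 570 reads), and 5 sites each were found in SRRM2, in the transcriptional corepressor BCOR, in the neuronal splicing regulator NOVA2 and in PABPC1, the cytoplasmic poly(A)-binding protein. In PABPC1 none of the 5 sites lay at CTCCA, and in NOVA2 each of the 5 did.

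**Figure D4:**
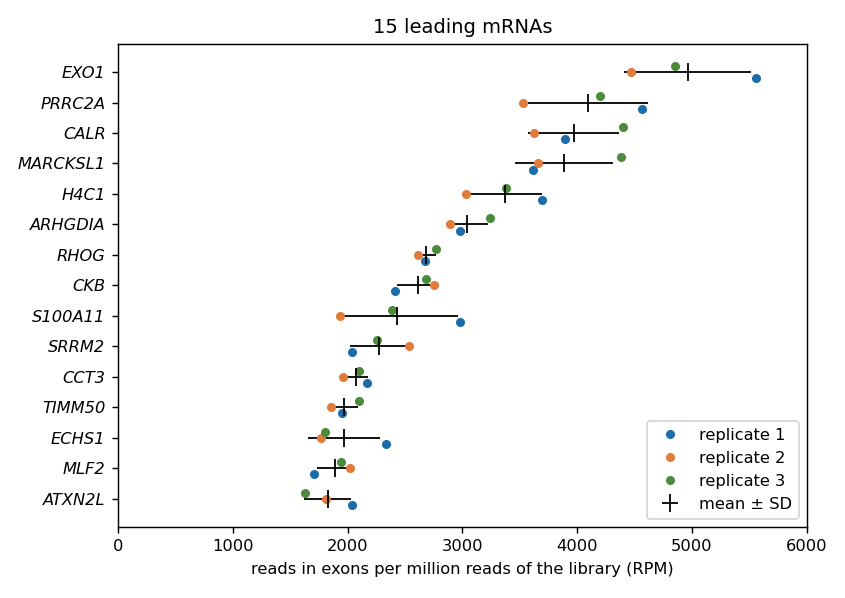
RPM in exons of the 15 leading nuclear protein-coding genes in the 3 NSun6 libraries, with a point per library. EXO1 leads at 4963 ± 554 RPM and ATXN2L is the last of the 15 at 1825 ± 204 RPM.

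Read count followed transcript abundance only in part. Over the 1848 genes with at least 10 reads in each library, RPM per kilobase of exon and the coverage of the same gene in the bisulfite libraries had a Pearson correlation of 0.41 on a log scale and a Spearman correlation of 0.389, both a description across genes that share the same libraries. Genes with a site lay at a median coverage percentile of 80.7, and 70 of the 1003 lay under the 50th percentile. H4C1, also among the leading genes by reads, lay at the 63.0th percentile. The bisulfite libraries were made from poly(A) RNA, and most histone mRNAs have no poly(A) tail, so their coverage is no measure of their abundance. CKB lay at the 99.9th percentile and CCT3 at the 99.8th.

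The share of members with a site in each gene group is given beside 9.98% of all genes with a read. The counts are small, several shares lie near that background, and no difference from it was tested. Each group is a list made by hand from gene names, which does not hold every gene of its function, and counts and leading members hold within that list. Ribosomal protein genes, whose mRNAs are among the most abundant of a cell, had a site in 4 of 61 genes with a read (6.56%), and their median coverage percentile was 98.7. Their leading members, RPL17 (304 ± 68.9 RPM), RPS27 (216 ± 89.2 RPM) and RPL9 (166 ± 48.5 RPM), carried 99.6% to 100% of their reads in annotated 5′ UTRs. Reads that mapped to several places had been removed, so parts of an mRNA with copies elsewhere in the genome would be undercounted. The effect of this on the share and on the region was not tested. Translation factors had a site in 8 of 60 genes (13.3%), led by PABPC1 (1130 ± 208 RPM), the elongation factor EEF2 (574 ± 71.5 RPM) and the initiation scaffold EIF4G1 (302 ± 75.3 RPM). The list of hnRNP and splicing factors had a site in 12 of 63 genes (19%), and its leading members were SRSF2 (1176 ± 312 RPM), the U2 snRNP subunit SF3B5 (783 ± 68.7 RPM) and the polypyrimidine tract binding protein PTBP1 (567 ± 47.1 RPM). SRSF2 held 275, 565 and 449 reads, and its RPM was lowest in replicate 1. The list of chaperones, which does not hold CALR, had a site in 9 of 49 genes (18.4%), and after CCT3 its leading members were HSP90AB1 (1076 ± 235 RPM) and DNAJC30 (306 ± 36.2 RPM). Histone genes had a site in 7 of 50 (14%), and after H4C1 came H4C4 (1577 ± 209 RPM) and H2AC16 (505 ± 72.7 RPM), each with at least 94.0% of its reads in the 3′ UTR.

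Nuclear genes of oxidative phosphorylation had a site in 8 of 57 genes (14%), led by NDUFS5 (381 ± 55.5 RPM), ATP5MC2 (359 ± 58.5 RPM) and ATP5MG (263 ± 101 RPM). Cytoskeletal genes had a site in 4 of 26 (15.4%), and ACTB, among the most abundant mRNAs of these cells, reached 148 ± 35.1 RPM, below the tubulin gene TUBB (435 ± 112 RPM) and level with TUBA1B (147 ± 45.9 RPM). Proteasome genes had a site in 5 of 32 (15.6%), with PSMD2, PSMD11 and PSMF1 at 262 ± 83.2, 230.1 ± 52.5 and 210.1 ± 56.1 RPM, which are within their SD of each other. The list for DNA replication, which takes in some repair genes, had a site in 3 of 36 (8.33%), and those 3 were EXO1, the helicase subunit MCM2 (804 ± 102 RPM) and the polymerase subunit POLE (297 ± 82.4 RPM). Aminoacyl-tRNA synthetases had a site in 3 of 17 genes (17.6%), led by IARS1 (1284 ± 201 RPM), YARS1 (288 ± 31.7 RPM) and AARS1 (228 ± 19.6 RPM).

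Among the enzymes and readers of m5C, the mRNA of NSUN6 itself stood out. It held 323, 428 and 323 exon reads (990.04 ± 71.4 RPM) at 163 positions, all of them in the coding sequence and none in a UTR, and its introns held 4, 18 and 10 reads. Its reads were spread, with 13.5% on the leading position, and 2 of its 3 sites lay at CTCCA. RNA from the transfected construct and from the cell's own gene cannot be told apart in these counts. NOP2, a nucleolar relative of NSun6, held 31, 45 and 41 reads (109 ± 22.1 RPM), and each of the other 6 members with a read lay at or below 20.3 RPM, with at least 1 library at 0 (NSUN4, TRDMT1, NSUN3, NSUN2, NSUN5 and ALYREF). NSUN2 mRNA, at the 94.1th percentile of coverage, held 5, 0 and 0 reads.

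Outside mRNA, VTRNA1-3 was the leading gene of the whole data set. It held 42388, 44785 and 33875 reads (112519 ± 17591 RPM), while VTRNA1-1, of the same gene cluster, held 450, 764 and 270 reads and VTRNA1-2 held 3, 12 and 21. The position at the T after the first cytosine of its CTCCA alone held 25282, 18666 and 17828 reads (58781 ± 19067 RPM), highest in replicate 1. This start was 12 bases from the annotated 3′ end of the gene (chr5:140105743-140105831), and the 10 positions after that end held a further 194, 508 and 131 reads. Reads shorter than 18 nt had been removed, so a read that began fewer than 18 bases before the annotated end ran past it. Such reads were 75.2%, 60.3% and 68.6% of the reads of VTRNA1-3 (68.1 ± 7.47%), and without them vault RNA held 3.38%, 3.97% and 3.57% of the libraries. A second pile of 4419, 5872 and 4437 reads (13576 ± 987 RPM) began at the first annotated base, where the 3 libraries were close. Because each read start was given to a cytosine within 2 nt, this pile was counted at a cytosine just outside the gene.

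Among reads that mapped to a single place, the tRNA-like loci were led by an arginine tRNA and not by the known substrates. Reads that fitted several gene copies equally had been removed, and the effect of this on the order was not tested. By a search for cloverleaf sequences, 310 loci with reads carried 50 anticodons, and Arg-TCG held 50.8%, 51.7% and 56.0% of the reads in them (52.8 ± 2.77%), Leu-CAA 9.21 ± 0.869%, Thr-TGT 7.55 ± 0.748%, Cys-GCA 7.31 ± 0.673%, Thr-CGT 5.41 ± 0.457% and Thr-AGT 2.06 ± 0.303%. Summed by amino acid, arginine loci had 54 ± 2.75%, threonine loci 15 ± 1.15%, leucine loci 11.5 ± 1.10% and cysteine loci 7.31 ± 0.673%. A single Arg-TCG gene (chr15:89878304-89878376, plus strand) held 11378, 14594 and 11791 reads (34982 ± 3701 RPM), more than any mRNA. Stretches of it are shown because they hold its leading cytosines, printed as the capital letter, and neither contains CTCCA.
Arg-TCG, base 40 (chr15:89878331-89878359, plus strand): ctgacttcggatCagaagattgcaggttc
Arg-TCG, base 35 (chr15:89878326-89878354, plus strand): ggcgtctgacttCggatcagaagattgca
The cytosine at base 40 held 4825, 5339 and 4503 reads (13686 ± 1965 RPM) and the one at base 35 held 3603, 5535 and 4306 reads (12353 ± 1554 RPM). Mitochondrial genes were not ranked with these loci. Among the other loci of the leading 10 nuclear non-coding genes were Leu-CAA genes on chromosome 6 (4178 ± 566 and 2455 ± 396 RPM) and a Thr-TGT gene on chromosome 14 (3152 ± 142 RPM). A Cys-GCA gene on chromosome 17 (2388 ± 120 RPM), Arg-TCG genes on chromosomes 17 (3760 ± 381 RPM) and 6 (2040 ± 520 RPM) and a locus on chromosome 3 annotated as Y RNA (1806 ± 483 RPM) were also among them. The level of one further 5.8S pseudogene is not given, because its reads cannot be told from those of ribosomal RNA.

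Within tRNAs most starts lay in the anticodon arm, with Leu-CAA as the exception among the leading anticodons. Counted from the first base of the locus, bases 27 to 43 held 75.7%, 75.2% and 77.4% of the starts (76.1 ± 1.16%), later bases 19.6 ± 0.898% and earlier bases 4.26 ± 0.583%. Without Arg-TCG the shares were 50.2 ± 0.834% in bases 27 to 43, 41.0 ± 0.645% later and 8.84 ± 1.06% earlier. By anticodon, bases 27 to 43 held 91.2 ± 2.80% of the starts of Thr-CGT, 90.4 ± 2.49% of Ala-TGC, 85.7 ± 1.78% of Thr-TGT, 66.6 ± 6.12% of Thr-AGT, 60.1 ± 5.31% of Ala-AGC and 55.9 ± 3.52% of Cys-GCA, and 1.62 ± 0.821% of Leu-CAA. Arg-TCG had 99.2 ± 0.198% in bases 27 to 43, at bases 39 (33.3 ± 4.13%), 28 (19.8 ± 0.644%), 34 (19.4 ± 0.452%) and 35 (13.5 ± 1.07%). Cys-GCA had 48.9 ± 5.57% of its starts at base 38, and Thr-TGT 41.6 ± 3.01% at base 34. Leu-CAA, whose 2 leading loci are longer (105 and 106 bases), stood apart from these, since base 93 alone held 55.4 ± 2.39% of its starts. Because of the removal of short reads, starts in the last bases of a mature tRNA, where the known NSun6 target lies, could be recorded only on longer RNA.

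Mitochondrial reads were concentrated on a leucine tRNA. MT-TL1 held 30.7%, 28.3% and 30.3% of the mitochondrial reads (29.8 ± 1.27%), followed by MT-ND3, a subunit of respiratory complex I, with 16.8 ± 0.741%. Stretches with no gene on the strand read held 8.49 ± 0.471%, MT-ND4L 6.28 ± 0.178%, MT-TL2 6.17 ± 0.365%, MT-RNR1 6.09 ± 0.492%, MT-TF 4.90 ± 0.465% and MT-CYB 4.38 ± 0.345%. MT-TL1 had its leading site at a cytosine without CTCCA (5534, 4828 and 4225 reads, 13748 ± 3380 RPM), while the leading site of MT-ND3 lay at CTCCA (4619, 5026 and 4366 reads, 13101 ± 2037 RPM). The leading mitochondrial sites were thus of both kinds.

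The bisulfite libraries gave a readout that the choice of sites did not use. The deposited table pools the 2 libraries, so a level has a counting interval and no replicate error, and over 5 reads were required and a level of 20% or more counted as methylated. In exons of the mRNAs with a site, 26 of 844 covered CTCCA motifs whose first cytosine was a site were methylated (3.08%, 2.02% to 4.48%), against 3 of 1611 motifs with reads below the site threshold (0.186%) and 13 of 4253 without a read (0.306%, 0.163% to 0.522%). The pooled level, over all bisulfite reads at these cytosines, was 1.87% at sites and 0.182% at motifs without a read. The contrast differed by region. In 3′ UTRs 11 of 397 sites (2.77%) and 13 of 1631 motifs without a read (0.797%) were methylated. In coding sequence these counts were 15 of 410 (3.66%) and 0 of 2419, and in 5′ UTRs 0 of 37 and 0 of 203. Methylation was read at the first cytosine of the motif. In the motifs that lay well inside an exon, 25 of 780 were methylated there, with a pooled level of 1.89%, and 0 of the 145 to 788 covered cytosines at each other distance up to 10 nt were, at pooled levels of 0.0303% to 0.124%, which is as far as this depth can show. Around motifs without a read the calls were not confined to the first cytosine. They numbered 13 of 3702 there, 12 of 3729 at 2 nt after it and 10 of 3735 at 3 nt after it. At the other distances the share ran from 0% to 0.853%. CTCTA sites in mRNA gave 0 methylated of 69 covered, which allows a share of up to 5.21%, at a pooled level of 0.946%.

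Methylation was more frequent at the sites with more reads. In 4 equal groups of 211 sites ordered by RPM, with medians of 58.0, 85.9, 139.1 and 360.8 RPM, 2, 3, 6 and 15 sites were methylated, and the pooled level was 0.674%, 1.01%, 1.66% and 3.59%. The Spearman correlation of level with RPM was 0.293 over the 844 sites, a description across sites that share the same libraries. Even in the highest of these groups 15 of 211 reached 20%. At a level of at least 5%, 131 of the 844 sites (15.5%) were counted.

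**Figure D5:**
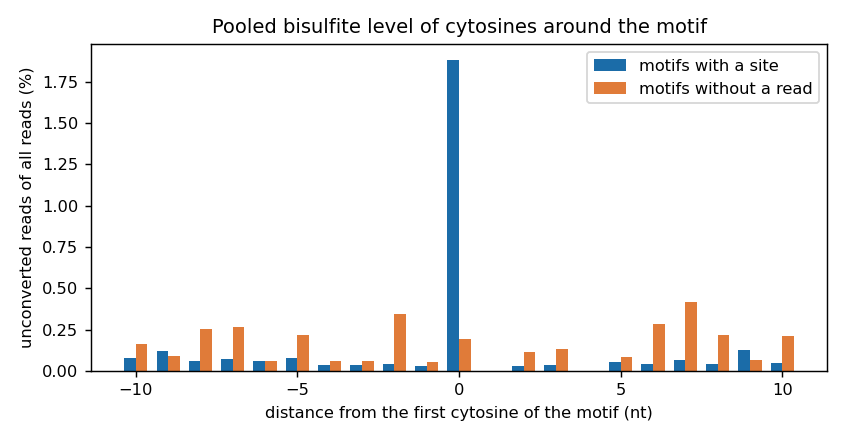
Pooled percent of bisulfite reads that were unconverted, against the distance in nt from the first cytosine of CTCCA. Bars are given for motifs with a site and for motifs without a read. At the first cytosine the pooled level was 1.89% at sites and 0.191% at motifs without a read.

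Of the covered mRNA sites, 15 of 470 in coding sequence were methylated (3.19%), 11 of 442 in 3′ UTRs (2.49%) and 0 of 46 in 5′ UTRs, which allows a share of up to 7.71%, so no difference between regions can be read from these counts. The 5 with the most methylated reads, chosen after their values were seen, are shown because they join binding and methylation at 1 base, the first capital.
NCOR1, coding sequence (chr17:15971335-15971363, minus strand): tcccagcgaagtCTCCAgtgcctggggtg
FURIN, 3′ UTR (chr15:91425529-91425557, plus strand): aggaggccacctCTCCAagggcttctgca
TIMM50, 3′ UTR (chr19:39980572-39980600, plus strand): tgtcccgagagtCTCCAgatgggggcatc
RPS6KB2, coding sequence (chr11:67200233-67200261, plus strand): gccctgggccatCTCCActcccagggcat
NECTIN2, coding sequence (chr19:45375171-45375199, plus strand): ggccctctgcatCTCCAaagagggccgcc
NECTIN2, a cell adhesion protein, had the highest level of the 5, with 72 of 88 reads methylated (81.8%, 72.2% to 89.2%) and 299, 481 and 427 miCLIP reads. The proprotein convertase FURIN had 176 of 276 (63.8%, 57.8% to 69.4%), TIMM50 170 of 350 (48.6%, 43.2% to 53.9%), the ribosomal protein S6 kinase RPS6KB2 108 of 269 (40.1%, 34.2% to 46.3%) and the nuclear receptor corepressor NCOR1 176 of 761 (23.1%, 20.2% to 26.3%). These intervals cover the counting of reads in the pooled table, and differences between the sites were not tested. The leading miCLIP sites were lower or poorly covered: MARCKSL1 had 166 of 1784 reads methylated (9.30%), ARHGDIA 49 of 1083 (4.52%), CCT3 163 of 6438 (2.53%), CKB 12 of 1026 (1.17%) and CALR 4 of 356 (1.12%), while RHOG with 6 of 22 and PITPNB with 8 of 19 passed the threshold at low coverage. EXO1 had 0 of 8 and H4C1 0 of 5 methylated reads, too few to show a level.

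Over all classes 68 of 1313 covered sites were methylated (5.18%), of which 40 of 77 lay in mitochondrial DNA. Covered sites numbered 0 of 88 in tRNA-like loci, 0 of 30 in vault RNA and 8 of 87 in introns. The methylation of tRNA and vault RNA sites was therefore not read. The level of mitochondrial cytosines was high whether or not they were sites, since 2653 of 4221 covered cytosines on the plus strand (62.9%) and 347 of 1905 on the minus strand (18.2%) passed the same threshold, and the mitochondrial sites (51.9%) therefore did not stand out from their background. Among nuclear sites 28 of 1236 were methylated (2.27%). The 5 methylated sites with the most methylated reads were all outside nuclear mRNA: a cytosine with ribosomal repeat sequence in the HFM1 locus (3136 of 3421 reads), a pair of sites in MT-ND3 (330 of 341 and 316 of 330), 1 in MT-ND5 (731 of 768) and 1 in MT-ND4 (319 of 499). The HFM1 site was read unevenly by the miCLIP libraries, with 70, 56 and 3 reads, and the MT-ND5 site with 6, 39 and 47.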

How the data were processed

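miCLIP and bisulfite sequencing were made in HEK293 cells. The deposited miCLIP files hold whole-number counts of read starts per position: the authors removed duplicates by random barcode, trimmed adapters and mapped unique reads with 1 mismatch, and the submitters' processing notes name Bowtie, Bismark and hg19/GRCh37 without versions. The deposited bisulfite table gives a percent and the counts of methylated and unmethylated reads for each cytosine, pooled over 2 libraries of poly(A) RNA by the authors, and no column was left unmapped. The files have no strand column; the first pass over the chromosomes was read as plus and the second as minus, which put 97.0% to 97.5% of tested positions on the strand of the exon.

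RPM is reads per 1000000 reads of a library. Positions were given to GENCODE 44 classes on GRCh37 with Python 3.11.15, pandas 2.3.3, pysam 0.24.0 and bedtools 2.31.1. Ribosomal repeat sequence was called outside exons where 30 nt from the start matched at least 25 bases of the unplaced contig GL000220.1 (BLAST+ 2.17.0). tRNA-like loci came from a search for cloverleaf stems, so their names rest on sequence and not on an annotation. Sites followed the threshold and cytosine window of the study's methods, a tie going to the 5′ cytosine. Folds were computed with ViennaRNA 2.7.2, and intervals are exact binomial (scipy 1.17.1). The coefficient of variation came from edgeR 4.0.16 after TMM and filterByExpr, tested on simulated data. No groups were compared, so there are no p-values. Depth was 305392 to 467586 reads, so 1 read is 2.14 to 3.27 RPM.

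Named were the 15 nuclear protein-coding genes and 10 nuclear non-coding loci with the highest RPM among those with at least 10 reads in each library. Also named were the 10 leading CTCCA sites in nuclear mRNA, up to 3 leading members of each gene list, the 5 methylated sites with the most methylated reads, and the m5C enzymes. The CTCTA sites, the methylated mRNA sites, and the genes with the most sites were named after their values were seen. Members and lists were chosen with earlier results of these data known. Coordinates are hg19, mitochondrial ones in the files' own numbering, and sequences are from the GRCh37 reference.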

Additional observations from a re-analysis of the deposited data

How the results depend on the processing

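No paired analysis was possible because the 3 libraries form a single group and no groups were compared. Of 79 alternative values, 52 stayed within the set limits and 27 moved; the cause was not tested beyond what each setting changes by construction. Counting each position once gave 60.1% of positions in mRNA exons, 2.13% in tRNA-like loci and, within mRNA, 50.0032% in coding sequence, 42.3% in 3′ UTRs and 7.70% in 5′ UTRs. Without the 100 leading positions these shares of reads were 62.4%, 3.61%, 48.5%, 45.3% and 6.24%. Where a base with several annotations was given to the UTR first, coding sequence held 43.9%, 3′ UTRs 47.3% and 5′ UTRs 8.82%, which puts the 3′ UTR ahead of coding sequence. In an alternative chosen after seeing the data, leaving out reads with ribosomal repeat sequence raised the mRNA share to 53.0%. Requiring the read to start on the cytosine itself left 692 sites in 386 genes, 71.0% of them at CTCCA, and a window of 1 nt gave 68.6% at CTCCA. A threshold of over 20 RPM gave 4054 sites in 1978 genes, with 4.02% of covered sites methylated, and over 100 RPM gave 998 sites in 551 genes. A level of at least 10% called 8.83% of covered sites methylated, and nuclear sites alone, also chosen after seeing the data, gave 2.27%. With no filter on low counts the coefficient of variation was 0.802 over 10047 genes. Leaving out each library in turn gave 1476 to 1556 sites in 777 to 829 genes, 63.6% to 65.9% at CTCCA, 5.02% to 5.47% methylated, 48.3% to 49.1% of reads in mRNA exons, 48.3% to 48.4% of these in coding sequence, 44.7% to 45.1% in 3′ UTRs and 6.64% to 6.86% in 5′ UTRs, 7.50% to 8.07% in tRNA-like loci, 27.6% to 29.9% at the 100 leading positions and a coefficient of variation of 0.212 to 0.270. A share below the worth of 1 read, 2.14 to 3.27 RPM, cannot be shown at this depth, and bisulfite coverage over 5 reads was met by 859 of the 1068 CTCCA sites in mRNA.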

Other observations

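A second sequence recurred outside exons. Of 49 positions there whose start lay next to the 10 bases gcggaaggat of the ribosomal repeat contig, with at most 1 difference, 42 began 3 nt before it, and together the 49 held 1.23%, 2.89% and 2.33% of the reads (2.15 ± 0.844%, SD, n = 3). A single position in an intron of ANKRD30BL (chromosome 2, 133011937) held 1.06%, 2.42% and 1.99%, and the other 48 held 0.332 ± 0.151%. The share was lowest in replicate 1 both with and without that position. In mRNA exons 5 such positions held 0.000711%. The 10 bases were chosen after the values were seen.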
